A study of Mus musculus and Sus scrofa with 18 samples.

Results

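The constant genes of the antibody chains and Jchain were examined in the striatum of HD mice. The 10 members are the heavy chain genes Ighm, Ighd, Ighg3, Ighg1, Ighg2b, Ighg2c and Igha, the light chain genes Igkc and Iglc1, and Jchain, of 55357 genes in the mouse counts. They were chosen by their higher counts in HD than in WT mice, so their values and counts in HD against WT mice only describe them and support nothing. Striatal RNA of 9 mice was sequenced, with 3 mice in each of 3 groups and 1 library per mouse. HD mice were heterozygous HD 140Q-KI animals, in which HTT exon 1 of human origin, with a lengthened CAG tract, stands in the mouse Htt gene, so that full-length mutant huntingtin is made. The line was bred to C57BL/6J mice. All mice were injected with AAV9 in both striata at 6 months of age, and the tissue was taken 1.5 months later. WT mice received AAV9-Ctrl gRNA alone. Untreated HD mice received AAV9-CasRx with AAV9-Ctrl gRNA. Treated HD mice received AAV9-CasRx with the AAV9 vectors for HTT gRNA1 and gRNA2 and for HTT gRNA3 and gRNA4. CasRx, an RNA-cutting Cas enzyme, was driven by the CAG promoter, which is active in most cell types, and the gRNA vectors also carried GFP. The HD groups differed from WT in the knock-in allele and also in the vector for CasRx. They differed in sex as well, as read from Y-linked genes. All WT mice had counts of these genes, and of the HD mice only untreated mouse 1 did. The paper states an equal ratio of males to females without giving the sex of each sequenced mouse. The parts of allele, vector and sex in a difference from WT cannot be told apart.

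An antibody is built from a pair of heavy and a pair of light chains, and the heavy chain constant gene sets its class. A naive B cell makes IgM and IgD from Ighm and Ighd, and class switching later joins the same variable region to an IgG, IgE or IgA constant gene further along the chromosome. Plasma cells secrete antibody, and the J chain joins the units of secreted IgM and IgA into polymers. The healthy brain holds few B cells and plasma cells outside its borders. In bulk tissue, more cells of a type and more RNA per cell cannot be told apart.

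The heavy chain genes lie together on mouse chromosome 12 and are read in the order Ighm, Ighd, Ighg3, Ighg1, Ighg2b, Ighg2c, Ighe and Igha (GENCODE M21). Igkc is on chromosome 6, Iglc1 on chromosome 16 and Jchain on chromosome 5. The last 60 coding bases of the secreted forms are shown because they hold the difference between the classes that bind J chain and those that do not. The sequences are lined up at their ends only and were not aligned, so a place in an IgG gene need not match that in Ighm or Igha. Capitals mark the codon before the last amino acid. It reads TGC, for the cysteine through which J chain is bound, in Ighm and Igha, and GGT in the 4 IgG genes:
Ighm: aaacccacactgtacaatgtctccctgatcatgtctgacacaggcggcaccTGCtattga
Igha: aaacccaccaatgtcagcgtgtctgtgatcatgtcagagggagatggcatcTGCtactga
Ighg3: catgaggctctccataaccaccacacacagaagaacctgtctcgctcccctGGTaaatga
Ighg1: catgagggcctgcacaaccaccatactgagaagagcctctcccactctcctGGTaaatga
Ighg2b: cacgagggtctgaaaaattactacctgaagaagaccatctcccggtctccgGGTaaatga
Ighg2c: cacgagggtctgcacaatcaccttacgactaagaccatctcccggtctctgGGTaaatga
Over the whole secreted coding sequence, Ighg2b and Ighg2c were 85.6% identical, with a longest shared run of 78 bases, and 5.26% of the 50-base words of Ighg2b were also in Ighg2c. The other IgG pairs were between 73.5% and 75.6% identical and shared no word of 50 bases. How reads that match both Ighg2b and Ighg2c were counted is not given in the sources used here, so the split between these genes carries that uncertainty.

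Library totals ranged from 27184356 to 32102121 counts. Values are CPM, counts scaled to a common TMM-adjusted library size. All 10 striatal projection neuron markers were detected, with a summed level of 5960 to 7830 CPM in WT, 1860 to 2230 CPM in untreated and 3030 to 3070 CPM in treated mice. Counts of Y-linked genes were present in all WT mice and in untreated mouse 1, and absent in the other 5 HD mice. Summed haemoglobin and other red blood cell transcripts were between 107 and 190 CPM in WT and between 2.77 and 67.3 CPM in HD mice. Choroid plexus genes summed to 307, 5510 and 2070 CPM in WT, 488, 280 and 270 CPM in untreated and 598, 312 and 2130 CPM in treated mice. Of these 12 genes, Clic6 was called lower in untreated than in WT mice (log2 fold change −2.50 ± 0.64, SE, adjusted p = 0.0387 from edgeR). In that comparison 10.7% of all tested genes were called in either direction. All 12 were lower there at an unadjusted P under 0.05 and at least 2-fold, as were 2.58% of all genes, with a median of −3.46.

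Antibody transcripts were scarce in WT and abundant in HD striatum, and in WT they were almost all Ighm. The 10 members summed to 43.0, 25.8 and 13.7 CPM in the WT mice, to 136, 435 and 1040 CPM in untreated mice and to 689, 1330 and 852 CPM in treated mice. At most they made up 0.135% of a library. Untreated mouse 1, the HD mouse with Y-linked counts, had the lowest sum of the 6 HD mice. Of the 9 members that passed the filter on low counts, the edgeR fit across all genes put 9 above WT at an adjusted p under 0.05 in untreated mice, where 4.58% of tested genes were called higher, and 9 in treated mice, where 0.904% were. The choice of members fixed the direction of these counts in advance. Members with few or no counts in WT mice passed the filter through the HD groups. Set beside the shares of all genes, the counts of members thus support nothing. The calls did not hold under every setting. With Y-linked counts as a covariate, 3 members were called in untreated and 0 in treated mice. The covariate was whether a mouse had any such count. Untreated mouse 1 was the only HD mouse that did, so this fit rests on that mouse and cannot tell sex from group. Without WT mouse 2 the counts were 6 and 4, and without WT mouse 3 they were 6 and 5. In treated mice 4 members were called without treated mouse 2, 5 without treated mouse 3, 6 without treated mouse 1 and 5 without an expression filter. In untreated mice 6 were called, of 8 that passed the filter, with only the compared groups fitted.

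**Figure D1:**
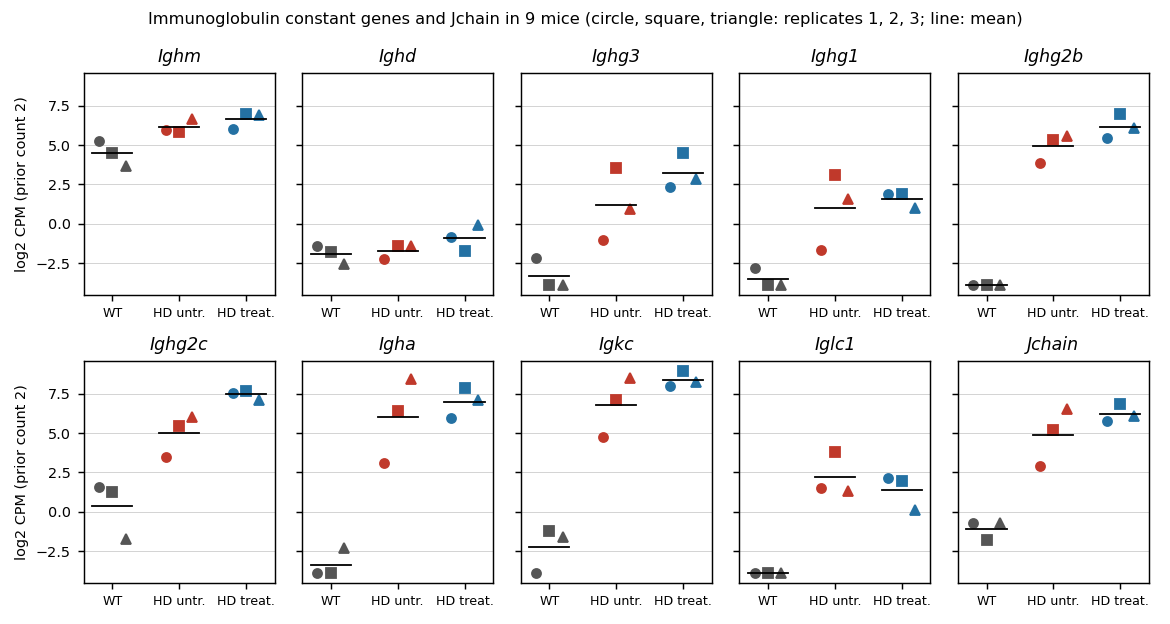
Level of each member in each of 9 mice as log2 CPM with a prior count of 2, with symbols for replicates 1, 2 and 3 and a line at the group mean. Apart from Ighd, every gene is higher in each HD mouse than in each WT mouse, and Ighg2c alone has all 3 treated mice above all 3 untreated mice.

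Ighm encodes the heavy chain of IgM, the class made first. It had 39.0, 22.6 and 12.5 CPM in WT, 63.4, 57.4 and 104 CPM in untreated and 65.7, 128 and 122 CPM in treated mice. Each HD mouse lay above each WT mouse, and the HD groups overlapped. The mean was 3.03-fold higher in untreated and 4.25-fold higher in treated than in WT mice, the smallest of these ratios among the 9 members that passed the filter. Ighd, the heavy chain of IgD, which naive B cells carry with IgM, stayed low throughout. It had 3 to 8 counts in WT, 4 to 9 in the untreated and 7 to 27 in treated mice, or 0.207 ± 0.102, 0.249 ± 0.0945 and 0.531 ± 0.323 CPM (SD, n = 3 each). Its groups overlapped and it did not pass the filter, so the main fit did not test it. Its mean was 1.2-fold higher in untreated and 2.56-fold higher in treated than in WT mice, the smallest ratios of the 10 members. Without an expression filter all 10 members, Ighd included, had an unadjusted P under 0.05 and at least 2-fold in treated against WT mice in edgeR.

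The IgG genes behaved unlike each other in level and in their spread between mice. Ighg2c encodes the heavy chain of IgG2c, the form of IgG2a in C57BL/6 mice. It had 2.95, 2.35 and 0.233 CPM in WT, 11.3, 43.2 and 66.4 CPM in untreated and 189, 207 and 140 CPM in treated mice. The 3 groups did not overlap, and the mean was 21.9-fold higher in untreated and 97.1-fold higher in treated than in WT mice. Ighg2b, the heavy chain of IgG2b, had no count in any WT mouse. It reached 14.6, 40.4 and 48.4 CPM in untreated and 44.1, 128 and 67.3 CPM in treated mice. Against 3 counts in a WT library, the mean in untreated mice was at least 304-fold higher, and that in treated mice at least 705-fold higher. Treated mouse 1 lay within the untreated range and the other two lay above it.

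Ighg3 encodes the heavy chain of IgG3, a class often made against repeated surface structures. It had 4 counts in WT mouse 1 and none in the other two, and 0.421, 11.9 and 1.87 CPM in untreated and 5.12, 22.6 and 7.24 CPM in treated mice. Ighg1, the heavy chain of IgG1, had 2 counts over the WT mice, 0.246, 8.40 and 2.89 CPM in untreated and 3.65, 3.59 and 1.97 CPM in treated mice. In both genes mouse 2 was the highest and mouse 1 the lowest untreated animal, and the HD groups overlapped. Ighe, the IgE gene and no member, had 3 counts in untreated mouse 3, 2 in treated mouse 2 and none elsewhere.

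Igha encodes the heavy chain of IgA, the main antibody of mucosal surfaces. It had 4 counts over all WT mice, and 8.66, 85.4 and 353 CPM in untreated and 62.6, 233 and 136 CPM in treated mice. The lowest and the highest HD value were both in untreated mice, and the HD group means of 149 ± 181 and 144 ± 85.4 CPM (SD, n = 3 each) were alike within that spread. Pigr, the receptor that carries polymeric IgA across epithelia, had at most 3 counts in any library.

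Igkc encodes the constant region of the kappa light chain, which most mouse antibodies use. It had 0, 10 and 8 counts in WT, and 27.2, 137 and 364 CPM in untreated and 259, 492 and 308 CPM in treated mice. Iglc1, a lambda light chain gene, had no count in WT. Its level was 2.74, 13.7 and 2.38 CPM in untreated and 4.38, 3.79 and 1.00 CPM in treated mice, with untreated mouse 2 apart from the other 5 HD mice. The lambda genes Iglc2 and Iglc3, which are not members, also had no count in WT and between 0.386 and 3.82 CPM and between 0.0702 and 1.84 CPM in HD mice. Iglc4 had 2 counts in untreated mouse 3 only.

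Jchain had 0.529, 0.220 and 0.532 CPM in WT, 7.40, 37.5 and 94.4 CPM in untreated and 54.6, 115 and 67.2 CPM in treated mice. Every HD mouse lay above every WT mouse, and the HD groups overlapped. The ratio to the WT mean was 109 in the untreated and 184 in treated mice.

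Heavy and light chain transcripts were out of step in WT mice. For each Igkc count there were 61.6 Ighm counts in WT mouse 2 and 46.9 in WT mouse 3, and WT mouse 1 had 1033 Ighm counts and no Igkc count. In untreated mice the ratio was 2.33, 0.419 and 0.285, and in treated mice it was 0.253, 0.260 and 0.396. Ighm was thus counted in WT mice with little or no kappa transcript beside it. Variable heavy chain segments (185 in the annotation) summed to 0.178, 0 and 0 counts per 100 heavy chain constant counts in WT mice. In HD mice they summed to 9.74, 21.4 and 22.4 in the untreated and 26.2, 24.4 and 26.0 in treated mice. Variable kappa segments (160) summed to between 74.3 and 91.0 counts per 100 Igkc counts in HD mice. The lowest heavy chain ratio was again in untreated mouse 1, where Ighm made up the largest part of the HD heavy chains.

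**Figure D2:**
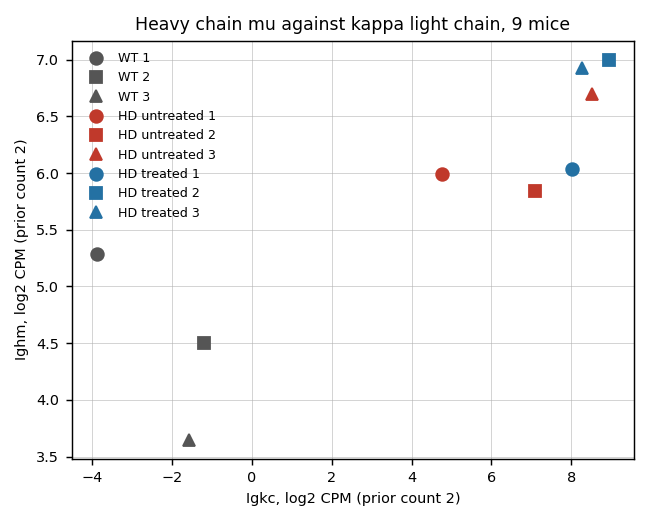
Ighm against Igkc in each of 9 mice, both as log2 CPM with a prior count of 2, with the colour giving the group and the symbol the replicate. WT mice have Ighm at 12.5 to 39.0 CPM with at most 10 counts of Igkc, and HD mice have both.

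The class composition was taken as the share of the 7 heavy chain genes in their summed counts. Counts were not divided by length, since the libraries are described as 3′ libraries. The variable segments, which lie 5′ of the constant region, were counted too, so a part of gene length in these shares was not excluded. Ighm held 91.8%, 89.8% and 96.4% of the heavy chain counts in WT mice, of 1125, 686 and 389 counts. It held 64.2%, 23.2% and 18.0% in the untreated and 17.7%, 17.7% and 25.6% in treated mice. Untreated mouse 1 stood apart from the other 5 HD mice, whose heavy chain counts were mostly of switched classes. The exact binomial 95% interval of its share, from 2814 counts, was 62.4% to 66.0%, which covers counting error only.

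The leading switched class differed from mouse to mouse. Igha held 8.78%, 34.6% and 61.2% in the untreated and 16.9%, 32.2% and 28.7% in treated mice. Ighg2c held 11.4%, 17.5% and 11.5% in the untreated and 51.0%, 28.7% and 29.5% in treated mice, without overlap. This share was singled out after the values were seen and was not tested. Ighg2b held between 8.41% and 17.8% in the 6 HD mice, Ighg3 between 0.324% and 4.82%, Ighg1 between 0.249% and 3.40%, and Ighd at most 0.183%. Within the IgG genes Ighg2c made up 42.4%, 41.6% and 55.5% in the untreated and 78.2%, 57.3% and 64.7% in treated mice.

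**Figure D3:**
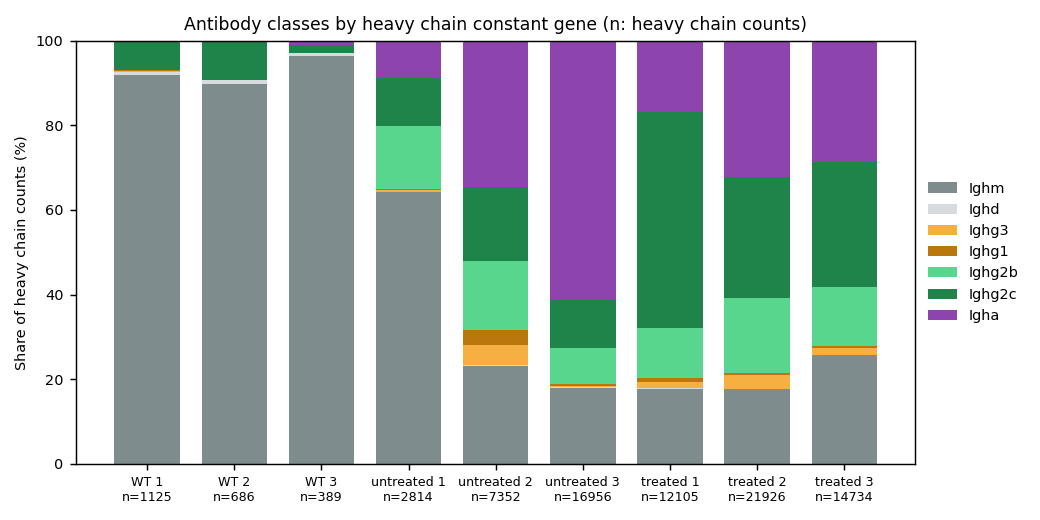
Share of each heavy chain constant gene in the summed heavy chain counts of each mouse, in percent, with the number of counts under each bar. WT bars are almost all Ighm, untreated mouse 1 is 64.2% Ighm, untreated mouse 3 is 61.2% Igha and treated mouse 1 is 51.0% Ighg2c.

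Of 4 measures of composition compared between the HD groups, none differed beyond the spread between mice. All 4 used two-sided exact permutation tests, for which 0.1 is the smallest p that 3 mice against 3 allow. The class-switched share of heavy chain counts was 35.7%, 76.6% and 82.0% in the untreated and 82.2%, 82.3% and 74.2% in treated mice. The means of 64.8% ± 25.3 and 79.6% ± 4.62 (SD, n = 3 each) gave an exact permutation p of 0.5, adjusted over the 4 measures to 0.667. Without untreated mouse 1 the difference of 14.8 percentage points became 0.247.

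The IgG share of class-switched counts was 75.4%, 54.9% and 25.3% in the untreated and 79.5%, 60.8% and 61.4% in treated mice (exact permutation p = 0.4, adjusted p = 0.667). The difference of 15.4 percentage points became 2.08 without untreated mouse 3, the mouse richest in Igha, and 27.1 without untreated mouse 1. The Igkc share of Igkc plus Iglc1 counts was 90.9%, 90.9% and 99.4% in the untreated and 98.3%, 99.2% and 99.7% in treated mice (exact permutation p = 0.3, adjusted p = 0.667). All HD mice thus used kappa for at least 90.9% of these light chain counts.

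Jchain counts per 100 heavy chain counts were 7.50, 15.2 and 16.4 in the untreated and 14.7, 15.9 and 14.1 in treated mice, against 1.24, 0.875 and 4.11 in WT mice. The HD groups gave an exact permutation p of 0.9. Untreated mouse 1 lay lowest, and the others of the 6 HD mice lay between 14.1 and 16.4. Against Ighm and Igha alone, the classes with the cysteine shown above, Jchain counts per 100 were 10.3, 26.3 and 20.7 in the untreated and 42.5, 31.8 and 26.0 in treated mice.

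Treated and untreated HD mice were compared gene by gene to ask whether targeting HTT changed the antibody transcripts. No member was called at an adjusted p under 0.05 in the quasi-likelihood test of edgeR, adjusted by Benjamini-Hochberg, and neither was any of the 19463 genes tested (0%). The smallest adjusted p of any gene was 0.348. DESeq2 called 49 genes and no member. At an unadjusted P under 0.05, 1071 genes passed (5.5%), and of the members 2 did, Ighg2c and Ighg2b. Both were also at least 2-fold higher, as were 0.36% of all genes, and 0.771% of all genes met that rule in either direction.

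With all mice in the fit, Ighg2c had the largest difference of the members, although Ighg3 passed it without untreated mouse 2. Its mean was 4.44 times as high in treated as in untreated mice, with a log2 fold change of 2.15 ± 0.60 (SE, unadjusted P = 0.00515, adjusted p = 0.821 from edgeR). It was higher in each treated mouse than in each untreated mouse, and with 1 mouse left out in turn the log2 fold change stayed between 1.72 and 2.71. With Y-linked counts as a covariate it was 1.71 (unadjusted P = 0.00621 from edgeR), close to the 1.72 without untreated mouse 1. Its adjusted p ranged from 0.235 to 1 over the 15 alternatives. Ighg2b differed by a log2 fold change of 1.21 ± 0.50 (SE, unadjusted P = 0.0437, adjusted p = 0.889 from edgeR), and between 0.70 and 1.54 with 1 mouse left out. Without untreated mouse 1 its value was 0.85.

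The other 7 tested members had wider or smaller differences. Log2 fold changes were 1.30 ± 0.98 (SE) for Ighg3, 1.00 ± 0.68 (SE) for Igkc, 0.76 ± 0.66 (SE) for Jchain and 0.49 ± 0.39 (SE) for Ighm. They were −0.05 ± 0.92 (SE) for Igha, −0.33 ± 0.84 (SE) for Ighg1 and −1.04 ± 0.78 (SE) for Iglc1. Single mice moved several of these values. Without untreated mouse 3, which had the highest Igha of all mice, the log2 fold change of Igha was 1.61, that of Igkc was 2.10 and that of Jchain was 1.81. Without untreated mouse 1, that of Igkc was 0.51, that of Jchain 0.27 and that of Igha −0.59. Ighg3 had the widest range, from 0.39 without treated mouse 2 to 3.35 without untreated mouse 2 (unadjusted P = 0.00534, adjusted p = 0.786 from edgeR). Without untreated mouse 2, Ighg1 was at 0.98 and Iglc1 at 0.27. With Y-linked counts as a covariate, Igkc was at 0.50, Jchain at 0.26 and Ighg3 at 0.76. The median over the 9 tested members was 0.76, against −0.01 over all tested genes.

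**Figure D4:**
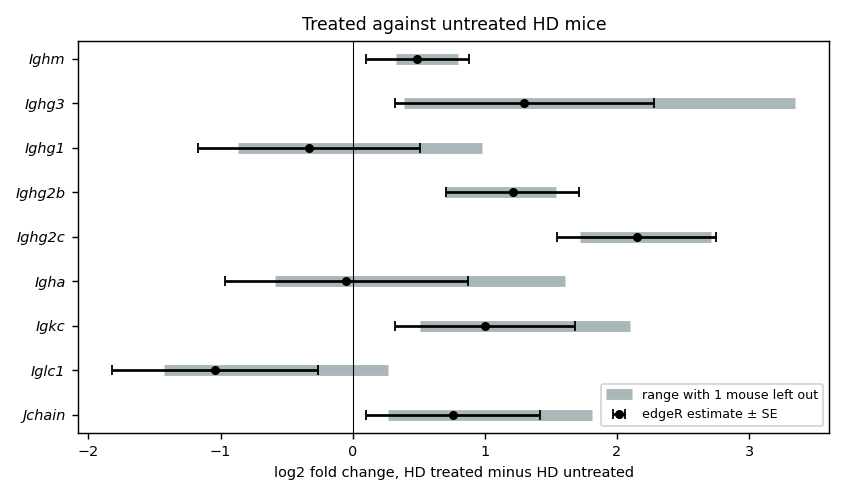
Log2 fold change of each tested member in treated against untreated HD mice, with points and black bars for the edgeR estimate and its standard error and grey bars for the range with 1 mouse left out. Ighg2c stays between 1.72 and 2.71, whereas Igha, Ighg1 and Iglc1 have ranges that cross 0.

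Genes that mark B cells were counted in low numbers, and some rose in HD mice. Of 17 B cell genes, 9 passed the filter. In untreated mice 3 of these rose against WT (adjusted p under 0.05 in edgeR, as did 4.58% of all tested genes). They were Pou2af1, a coactivator of immunoglobulin transcription, Cd22, an inhibitory receptor of B cells, and Tnfrsf13c, the receptor for the survival factor BAFF. In treated mice 3 rose too, Pou2af1, Tnfrsf13c and Cd79a, the signalling chain of the B cell receptor, where 0.904% of all tested genes rose. Pou2af1 had 0, 1 and 0 counts in WT, 7, 43 and 116 in the untreated and 41, 59 and 50 in treated mice. Its log2 fold change was 6.86 ± 1.27 (SE, adjusted p = 0.0126 from edgeR) in untreated and 6.63 ± 1.28 (SE, adjusted p = 0.0252 from edgeR) in treated mice. The defining marker Ms4a1, which encodes CD20, was near the limit of detection, with no count in WT, 0, 4 and 17 in the untreated and 6, 12 and 3 in the treated mice.

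Of 13 plasma cell genes, 12 passed the filter. In untreated mice Mzb1 and Slamf7 rose and Xbp1 fell, and in treated mice Mzb1 rose. Of all tested genes, 4.58% were called higher in untreated and 0.904% in treated mice, and 10.7% and 3.69% in either direction. At an unadjusted P under 0.05 in edgeR, 5 plasma cell genes were higher and 2 lower in untreated mice. In treated mice 6 were higher and 2 lower. The median log2 fold change of the 12 genes was 0.42 in untreated and 0.75 in treated mice, against 0.02 and 0 over all genes. Mzb1, an endoplasmic reticulum protein that aids antibody assembly in plasma cells, had 1, 6 and 7 counts in WT, 16, 34 and 71 in the untreated and 51, 94 and 59 in treated mice. Its log2 fold change over WT was 3.02 ± 0.67 (SE, adjusted p = 0.0247 from edgeR) in untreated and 3.69 ± 0.67 (SE, adjusted p = 0.0198 from edgeR) in treated mice. There were 48.5, 120 and 151 Igkc counts per Mzb1 count in untreated and 166, 159 and 161 in treated mice. Sdc1, which encodes the plasma cell surface marker CD138, had 6, 35 and 57 counts in untreated and 47, 78 and 52 in treated mice, against 13, 31 and 19 in WT, and did not pass the test. Xbp1, a secretory transcription factor that brain cells also express, went from 115 CPM in WT to 77.5 CPM in untreated mice (log2 fold change −0.58 ± 0.13, SE, adjusted p = 0.0286 from edgeR). Slamf7, a receptor on plasma cells and cytotoxic lymphocytes, had a log2 fold change of 6.38 ± 1.64 (SE, adjusted p = 0.039 from edgeR) in untreated mice, which had 11, 13 and 267 counts. At an unadjusted P under 0.05 and at least 2-fold, the definition in the results of the study, 6 B cell and 5 plasma cell genes were higher in untreated mice (5.57% of all genes), and 6 B cell and 4 plasma cell genes in treated mice (3.84%). With Y-linked counts as a covariate, none of the B cell or plasma cell genes was called in either HD group. The same held without WT mouse 2, and without any 1 of the treated mice none was called in treated mice. Without untreated mouse 3, no plasma cell gene was called in untreated mice, and 5 B cell and 3 plasma cell genes were called in treated mice. Without WT mouse 1, WT mouse 3 or untreated mouse 2, 1 B cell gene was called in treated mice.

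Of 14 germinal centre and class switch genes, 10 passed the filter, and Icosl and Icos, a ligand and receptor of T cell help, rose in untreated mice. The log2 fold changes were 0.90 ± 0.23 (SE, adjusted p = 0.0366 from edgeR) and 5.05 ± 1.41 (SE, adjusted p = 0.0499 from edgeR). None was called in treated mice. The share of all tested genes called higher was 4.58% in untreated and 0.904% in treated mice. Of 15 cytokines and survival factors, 9 passed the filter and 2 rose in untreated mice, against the same 4.58% of all tested genes. Cxcl13, a chemokine that draws B cells, had 0, 2 and 0 counts in WT, 36, 155 and 574 in the untreated and 30, 65 and 271 in treated mice. Its log2 fold change was 8.27 ± 1.66 (SE, adjusted p = 0.0168 from edgeR) in untreated and 7.13 (adjusted p = 0.0510 from edgeR) in treated mice. Tnfsf13b, which encodes BAFF, had a log2 fold change of 1.74 ± 0.46 (SE, adjusted p = 0.0410 from edgeR) in untreated and 1.65 (adjusted p = 0.0784 from edgeR) in treated mice.

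Receptors and binding proteins for antibodies also rose in part. Of 14 such genes, 11 passed the filter, 3 were called higher in untreated mice and none in treated mice. Of all tested genes, 4.58% were called higher in untreated and 0.904% in treated mice. Fcgr4, an activating Fc receptor that binds IgG2a and IgG2b, had 0, 4 and 4 counts in WT, 30, 76 and 419 in the untreated and 47, 89 and 188 in treated mice. Its log2 fold change over WT was 5.91 ± 1.23 (SE, adjusted p = 0.0199 from edgeR) in untreated and 5.13 (adjusted p = 0.0537 from edgeR) in treated mice. Fcgr2b, the inhibitory Fc receptor, had a log2 fold change of 2.02 in both, with an adjusted p of 0.0330 in the untreated and 0.0550 in treated mice from edgeR. C1qa, a chain of the complement protein that binds IgM and IgG, had 1.90 ± 0.52 (SE, adjusted p = 0.0489 from edgeR) in untreated mice. The median of these 11 genes was 1.53 in the untreated and 1.24 in treated mice, against 0.02 and 0 over all genes.

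Of 12 T cell genes, 5 were called higher and 1 lower in untreated than in WT mice. Of all tested genes, 4.58% were called higher in that comparison and 10.7% in either direction. In treated mice, where these shares were 0.904% and 3.69%, only 1 was called, and it was lower. At an unadjusted P under 0.05 and at least 2-fold, 11 were higher in untreated mice (5.57% of all genes) and 8 in treated mice (3.84%). The median log2 fold change over WT was 5.36 in the untreated and 4.02 in treated mice. The gene called lower was Cd4 in both, the co-receptor of helper T cells (adjusted p = 0.000239 in untreated and 0.00389 in treated mice from edgeR). It had 72.0 CPM in WT, 18.1 CPM in untreated and 31.9 CPM in treated mice. Of the other T cell genes, Cd3g had no count in WT mice and Trac had 2, 0 and 8. Trbc1 had 15, 5 and 2 counts there, Trbc2 had 199, 50 and 30, and the rest had at most 9 in any WT mouse. Cd4 was thus counted in WT mice with little or no Cd3g and Trac but with some Trbc2 beside it. Its cell of origin was not tested. The order of the mice was not the same in every immune list. Fcgr4, Cxcl13 and the T cell gene Cd8a were highest in untreated mouse 3, and Cd8a had 33, 82 and 561 counts in untreated and 26, 40 and 141 in treated mice, against 0, 0 and 4 in WT. The summed antibody level was highest in treated mouse 2, where Cd8a was low among HD mice. Between treated and untreated mice no gene of the B cell, plasma cell, class switch, cytokine, receptor, T cell, red blood cell, choroid plexus or meningeal lists was called by edgeR. At an unadjusted P under 0.05, 0 of the 9 B cell and 0 of the 12 plasma cell genes passed.

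None of the 5 red blood cell genes was called in either HD group, and their summed level in HD mice, at most 67.3 CPM, was below the 107 CPM of the lowest WT mouse. At an unadjusted P under 0.05 and at least 2-fold, all 5 were lower in treated and none in untreated mice. In treated mice 1016 of 19463 genes met that rule in either direction, and 747 of them were higher. The median log2 fold change of the 5 genes was −3.04 in treated and −2.06 in untreated mice. Treated mouse 2 had the highest summed antibody level and the lowest summed red blood cell level of the 9 mice. Meningeal fibroblast genes summed to 33.2 to 171 CPM with 0 of 8 called. The choroid plexus genes, given above, had lower values in untreated mice, and their part in the antibody result was not tested.

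The genes whose log2 CPM followed the log2 summed level of the members most closely over the 6 HD mice, of 16036 outside the immunoglobulin loci, were Nes, Mzb1, Dnah2, Gm15417 and Eef1a1. Pearson's r was 0.992, 0.989, 0.988, 0.987 and 0.987, and 230 genes had an r of at least 0.9. The points share their libraries, and with 6 mice this is a description. Mzb1 ranged from 0.561 to 3.1 CPM among HD mice. Nes ranged only from 9.72 to 15.1 CPM and Eef1a1 from 1810 to 2250 CPM, so a high r did not go with a large change.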

How the data were processed

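The authors primed 3′ mRNA libraries with oligo-dT and deposited raw counts per Ensembl gene, 1 library per mouse. The paper's methods name STAR, and the submitters' processing notes name Trimmomatic 0.39, FastQC 0.11.9, HISAT2 2.2.1 and featureCounts 2.0.1 without saying for which species. The mouse build is not given in the sources used here, so chromosomes and gene order only come from GENCODE M21, which named 94.1% of IDs (99.8% of counts). In 378 genes every library holds a 1. Pig counts were not used.

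In R 4.3.3, edgeR 4.0.16 (filterByExpr, TMM, glmQLFit on all 9 libraries, glmQLFTest) tested 19463 genes, with Benjamini-Hochberg adjustment over all of them. A gene was called at an adjusted p under 0.05. Standard errors are the log2 fold change over the square root of F. Composition was compared with exact permutation tests (scipy 1.17.1). DESeq2 1.42.0 and the other alternatives are in the closing section. Log2 CPM used a prior count of 2. The steps were tested on simulated data.

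The members and gene lists were chosen with earlier results of these data known. Named genes are the members, up to 4 genes per list with the smallest P in untreated against WT mice, a set of marker genes (Ms4a1, Mzb1, Sdc1, Pigr, Ighe and other Iglc genes) and the 5 genes closest to the members. Cd79a was named for its call, and Trbc1 and Trbc2 for their counts in WT mice, after their values were seen. Some marker genes are not reported here.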

Additional observations from a re-analysis of the deposited data

How the results depend on the processing

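No member was called between treated and untreated mice in any of the 15 refits, and with a mouse left out the members called stayed at 0. With an unadjusted P under 0.05 and at least 2-fold, 2 members and 150 genes passed between the HD groups, 6 B cell genes in each HD group against WT, and 5 (untreated) and 4 (treated) plasma cell genes. With P under 0.01 and over 2-fold, 1 member and 33 genes passed between the HD groups, 946 genes in untreated mice against WT (2080 at an adjusted p under 0.05), and 3 plasma cell genes in treated mice. DESeq2 called 49 genes between the HD groups, 3473 in untreated and 1978 in treated mice against WT (718 in edgeR), and 5 plasma cell genes in each. Without an expression filter 1096 and 365 genes were called, with 0 B cell genes in treated and 1 plasma cell gene in untreated mice. With only the compared groups fitted, 726 genes were called in untreated mice, with 0 B cell and 1 plasma cell gene, and 5 B cell and 3 plasma cell genes in treated mice. With Y-linked counts as a covariate, 251 genes (untreated) and 3 genes (treated) were called against WT, and 0 B cell and 0 plasma cell genes. The fit with the Y-linked covariate rests on untreated mouse 1, the only HD mouse with such counts. The cause of these changes was not tested.

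Same-numbered untreated and treated mice deviated together with correlations of 0.191, −0.00304 and 0.236, and different-numbered ones with correlations between −0.282 and 0.156. These few values cannot decide whether the replicate numbers pair the mice, and the main fit left the numbers out. With a replicate block no member was called, 4 had an unadjusted P under 0.05 (2 without), the log2 fold changes of Igha and Ighg1 became 0.98 and 0.16, and 2 plasma cell genes were called in treated mice. Divided by exon length, the difference in Jchain per 100 heavy chain counts was −0.0647. With 1 mouse left out, it ranged from −0.901 to 3.54, the class-switched share from 0.247 to 23.4 percentage points, the IgG share from 2.08 to 27.1 and the Igkc share from 3.96 to 8.2. Log2 fold changes ranged from −0.59 to 1.61 for Igha, −0.87 to 0.98 for Ighg1, −1.43 to 0.27 for Iglc1, 0.39 to 3.35 for Ighg3 and 0.27 to 1.81 for Jchain. Called genes ranged from 912 to 2584 (untreated against WT), 136 to 1380 (treated against WT) and 0 to 1 (between HD groups), B cell genes from 0 to 4 and 0 to 5, and plasma cell genes from 0 to 4 and 0 to 3, in untreated and treated mice. Subtracting the WT mean CPM, chosen after seeing the data, left a class-switched difference of 11.5 and an IgG difference of 15.9 percentage points. Against Ighm and Igha alone, also chosen after seeing the data, the Jchain difference was 14.3.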
